A study of Mus musculus with 6 samples.

Results

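The 42 genes described here encode proteins that act in G2 phase and mitosis: cyclins, CDK1 and its phosphatases, mitotic kinases, kinesins, kinetochore and condensin subunits, and regulators of the anaphase-promoting complex. They were listed by gene symbol, not by their measured values, and all 42 were found among the 18193 named genes of the array. For a gene with several probe sets, the brightest on average over the 6 arrays was used. RNA came from Ba/F3 cells, a mouse haematopoietic line labelled as BALB/c murine leukemia cells and grown with 10% fetal bovine serum and 20% WEHI-3 culture supernatant, a source of interleukin-3. The cells of both groups carried the fusion gene PAX5-KIDINS220 in a retroviral Tet-on vector. Dox(+) cells received 500 ng/mL doxycycline, which switches the fusion on, and their RNA was taken after 24 h (3 arrays); Dox(-) cells carried the same vector and received no doxycycline (3 arrays). No cells given doxycycline without the fusion were analysed here, so effects of the drug and of the fusion cannot be told apart. Whether the cells were a clone or a pool is not stated. Whether the 3 samples of a group were separate cultures is not stated, and the p-values therefore describe the spread between arrays, which may be technical.

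The array codes in the titles start with EA15 for 1 Dox(+) and 1 Dox(-) array, and with EA20 for 2 Dox(+) and 2 Dox(-) arrays. The labels do not say what the codes mark. Dox(+) was compared with Dox(-) within each of these sets, and in a fit of all 6 arrays with the set as a block. In EA20 the codes of the Dox(+) arrays precede those of the Dox(-) arrays, so code order and treatment cannot be told apart there.

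Entry into mitosis is driven by CDK1 bound to cyclins A and B, after CDC25 phosphatases have removed its inhibitory phosphates. Polo-like and Aurora kinases then build the spindle, kinetochores attach chromosomes to it, and the spindle checkpoint holds the anaphase-promoting complex in check until all are attached. The complex, with its activator CDC20, marks securin and the cyclins for destruction, which frees separase to part the sister chromatids. The mRNAs of most of these genes rise late in the cell cycle and are low in resting cells, so they serve as markers of proliferation.

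Many such genes share a promoter layout in which CCAAT boxes, bound by NF-Y, lie upstream of a cell cycle genes homology region (CHR), the element bound by the MuvB core of the DREAM complex in resting cells and of the B-Myb and FOXM1 complexes in dividing cells. RefSeq promoter windows of 300 bases (250 before to 50 after the gene start, GRCm38.p6) were held for 34 of the 42 genes, 3 of them with 2 windows. The letters TTTGAA or TTCGAA, on either strand, stood in 30 of their 37 windows (81.1%), against 19.2% of the 32851 windows of all genes. CCAAT, on either strand, stood in 28 of 37 (75.7%), against 37.4% of all windows. In 27 of 37 windows both were present, against 7.52% of all. A CHR match started within 50 bases of the gene start in 26 of 37 windows, against 5.31% of all windows. These are letter matches in a fixed window and were not tested as binding sites.

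**Figure D1:**
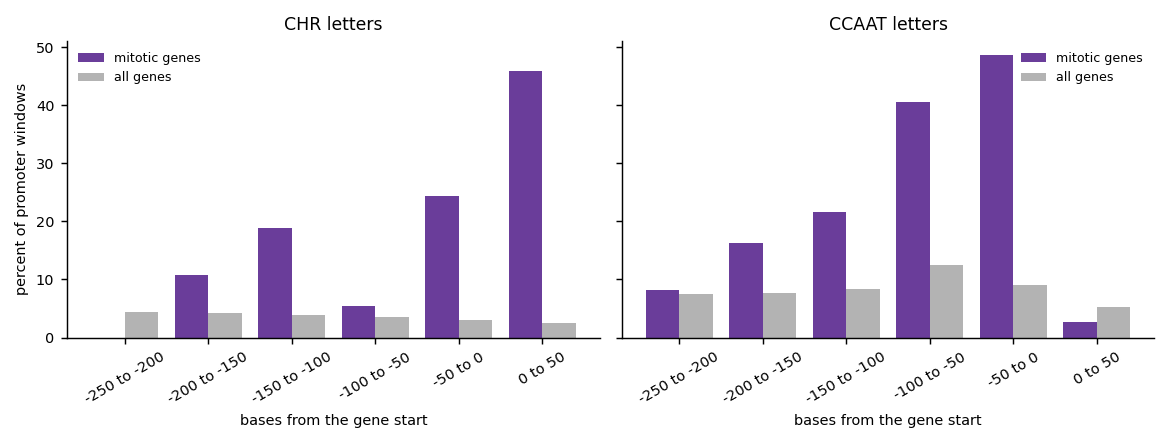
Percent of promoter windows (vertical axis) in which a CHR match (left) or a CCAAT match (right) starts in each 50-base stretch from the gene start (horizontal axis), for the 37 windows of mitotic genes (purple) and the 32851 windows of all genes (grey). CHR matches of the mitotic genes were most frequent in the 50 bases after the start (45.9%, against 2.46% of all windows), and CCAAT matches in the 50 bases before it (48.6%, against 9.03%).

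The windows below belong to the 4 genes with the smallest p for doxycycline that hold a CHR match, and to Nusap1, the gene with the smallest p that holds none; capitals mark CHR and CCAAT letters on either strand. Mki67 lies at chr7:135716330-135716629, Cenpf at chr1:189688037-189688336, Ndc80 at chr17:71526808-71527107 and Ect2 at chr3:27153805-27154104, all on the minus strand, and Nusap1 at chr2:119618048-119618347 on the plus strand. Each is written 5′ to 3′ along its gene.
Mki67: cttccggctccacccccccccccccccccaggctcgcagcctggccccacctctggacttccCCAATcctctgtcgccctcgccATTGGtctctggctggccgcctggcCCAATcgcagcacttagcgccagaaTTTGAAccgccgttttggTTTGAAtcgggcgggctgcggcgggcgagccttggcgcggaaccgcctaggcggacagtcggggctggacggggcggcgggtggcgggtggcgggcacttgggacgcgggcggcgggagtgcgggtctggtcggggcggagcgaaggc
Cenpf: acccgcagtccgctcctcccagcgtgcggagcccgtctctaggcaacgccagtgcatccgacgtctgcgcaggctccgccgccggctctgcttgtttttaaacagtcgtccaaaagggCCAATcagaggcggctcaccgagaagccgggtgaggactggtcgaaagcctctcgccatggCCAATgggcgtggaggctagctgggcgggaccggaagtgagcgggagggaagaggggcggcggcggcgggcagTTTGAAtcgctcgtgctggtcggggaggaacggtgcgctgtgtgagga
Ndc80: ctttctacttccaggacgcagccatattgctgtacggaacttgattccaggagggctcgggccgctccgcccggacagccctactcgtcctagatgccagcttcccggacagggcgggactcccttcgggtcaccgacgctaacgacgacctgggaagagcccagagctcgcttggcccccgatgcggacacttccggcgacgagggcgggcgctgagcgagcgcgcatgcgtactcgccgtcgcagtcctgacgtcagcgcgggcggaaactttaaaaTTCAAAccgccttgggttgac
Ect2: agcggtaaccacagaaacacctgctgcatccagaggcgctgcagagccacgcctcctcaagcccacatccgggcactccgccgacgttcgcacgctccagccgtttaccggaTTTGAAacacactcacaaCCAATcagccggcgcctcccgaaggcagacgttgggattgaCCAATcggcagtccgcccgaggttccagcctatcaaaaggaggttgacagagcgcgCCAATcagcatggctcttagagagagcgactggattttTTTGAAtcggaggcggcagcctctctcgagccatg
Nusap1: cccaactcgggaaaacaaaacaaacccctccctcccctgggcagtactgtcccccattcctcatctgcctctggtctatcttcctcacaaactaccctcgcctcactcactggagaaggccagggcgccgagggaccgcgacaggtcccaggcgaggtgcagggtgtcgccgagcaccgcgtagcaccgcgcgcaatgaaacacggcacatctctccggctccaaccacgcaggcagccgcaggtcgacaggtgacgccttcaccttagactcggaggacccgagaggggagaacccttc
Counting the gene start as 1 and the base before it as -1, Mki67 has CHR matches at -116 and -98, downstream of 3 CCAAT matches. In Cenpf the CHR begins at 3, in Ndc80 at 30 on the opposite strand, and in Ect2 at 16 and -138. Ndc80 and Nusap1 hold no CCAAT in this window. Among the 34 genes, the 27 with a CHR match had a median log2 difference of -0.32 in EA20. The 7 without one (Birc5, Cenpe, Mad2l1, Ncaph, Nuf2, Nusap1 and Pttg1) had -0.22. The CCAAT split gave the same medians, -0.32 for the 25 genes with a match and -0.22 for the 9 without. Largely the same genes lacked either match, and no test was made.

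All arrays had the same trimmed mean signal (500), and their median signals ran from 56.5 to 65.9. The 3′ to 5′ ratio of the Gapdh control probe sets was 0.656 to 0.688 in Dox(+) and 0.637 to 0.684 in Dox(-), and that of Actb was 1.17 to 1.24 in Dox(+) and 1.18 to 1.23 in Dox(-). Of 26 marker genes measured, limma with the block called 1, Cd53, a tetraspanin of leukocytes, which had signals of 6940 to 16366 in Dox(+) and 3899 to 12046 in Dox(-) (log2 difference 0.69, adjusted p 0.022); its part in the results below was not tested. Of the other markers of the line, Ptprc (CD45) had signals of 8061 to 17687 in Dox(+) and 7450 to 15957 in Dox(-), and Csf2rb, the shared beta chain of the interleukin-3 receptor, 9119 to 22447 in Dox(+) and 8398 to 20490 in Dox(-). Early B-lineage markers were dim apart from Cd79b (517 to 777 in Dox(+) and 467 to 662 in Dox(-)), and Ebf1, Cd79a, Vpreb1, Igll1, Rag1 and Rag2 stayed at or below 118 on every array. Over the 6 arrays the T cell marker Cd3e ran from 8.95 to 32.4 and Cd3g from 6.68 to 382. The fibroblast marker Col1a1 ran from 28.6 to 53.4. Of the macrophage markers, Adgre1 was the brightest, from 712 to 1166. Csf1r ran from 115 to 406, Cd68 from 95.3 to 222 and Cd14 from 7.48 to 59.1. Of the 2 probe sets for Pax5, 1 gave 119, 94.5 and 94.2 in Dox(+), against 15.6, 3.76 and 20.3 in Dox(-) (blocked limma adjusted p 0.12 over all named probe sets); the other differed by 0.21 on the log2 scale. The 4 probe sets of Kidins220, the other fusion partner, differed by -0.08 to 0.26 (limma adjusted p 0.52 to 0.96), and which probe sets read the fusion is not known here.

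In the EA20 arrays the mitotic genes were lower with doxycycline nearly throughout, by modest amounts, and in the EA15 arrays they showed no common direction. The log2 difference, Dox(+) minus Dox(-), was negative for 40 of 42 genes in EA20, with a median of -0.31, against 50.3% negative and a median of -0.00 over all 18193 genes. In EA15 it was negative for 19 of 42 with a median of 0.01, against 47.5% and 0.02 over all genes. All differences are on the scale log2(signal + 16). In 37 of 42 genes both EA20 Dox(+) signals lay below both EA20 Dox(-) signals, as they did in 20.9% of all genes; in 0 of 42 did they lie above, as they did in 21.6% of all genes. Such a drop in bulk RNA can mean fewer cells in G2 and mitosis or less of these mRNAs per cell, and the arrays cannot tell these apart.

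**Figure D2:**
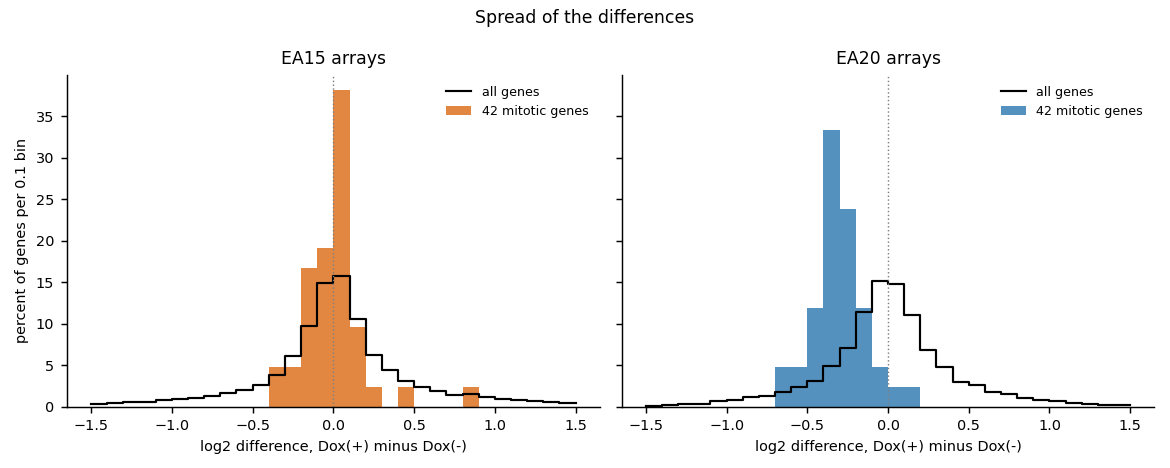
Percent of genes per 0.1 bin (vertical axis) by log2 difference, Dox(+) minus Dox(-) (horizontal axis), for the 42 mitotic genes (bars) and all genes (line), in EA15 (left) and EA20 (right). In EA20 the bin from -0.4 to -0.3 holds the most mitotic genes (33.3%, against 4.88% of all genes), while in EA15 it is the bin from 0 to 0.1 (38.1%, against 15.7%).

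Few of these differences passed a test over all genes. With the set as a block, 0 of 42 genes were called at a Benjamini-Hochberg adjusted p under 0.05 in limma, where 0.198% of all genes were called, and their adjusted p ran from 0.074 to 0.95. In that fit 39 of 42 differences were negative, with a median of -0.21, against 49.3% and 0.00 over all genes. At an unadjusted p under 0.05 it held 23 of 42 (54.8%), against 11.1% of all genes. In EA20 alone limma called 1 gene, Mki67, as lower, where 0.11% of all genes were called lower. There 31 of 42 (73.8%) had an unadjusted p under 0.05, against 13.0% of all genes. Genes that vary together are not independent, so these counts do not stand for separate tests. Without the block limma called 0 of the 42 and 0 of all genes, and 1 of the 42 had an unadjusted p under 0.05. Over all 6 arrays, the 3 Dox(+) signals lay below the 3 Dox(-) signals for Mki67 and Cenpf, 2 of 42, a share (4.76%) near that of all genes (3.06%).

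**Figure D3:**
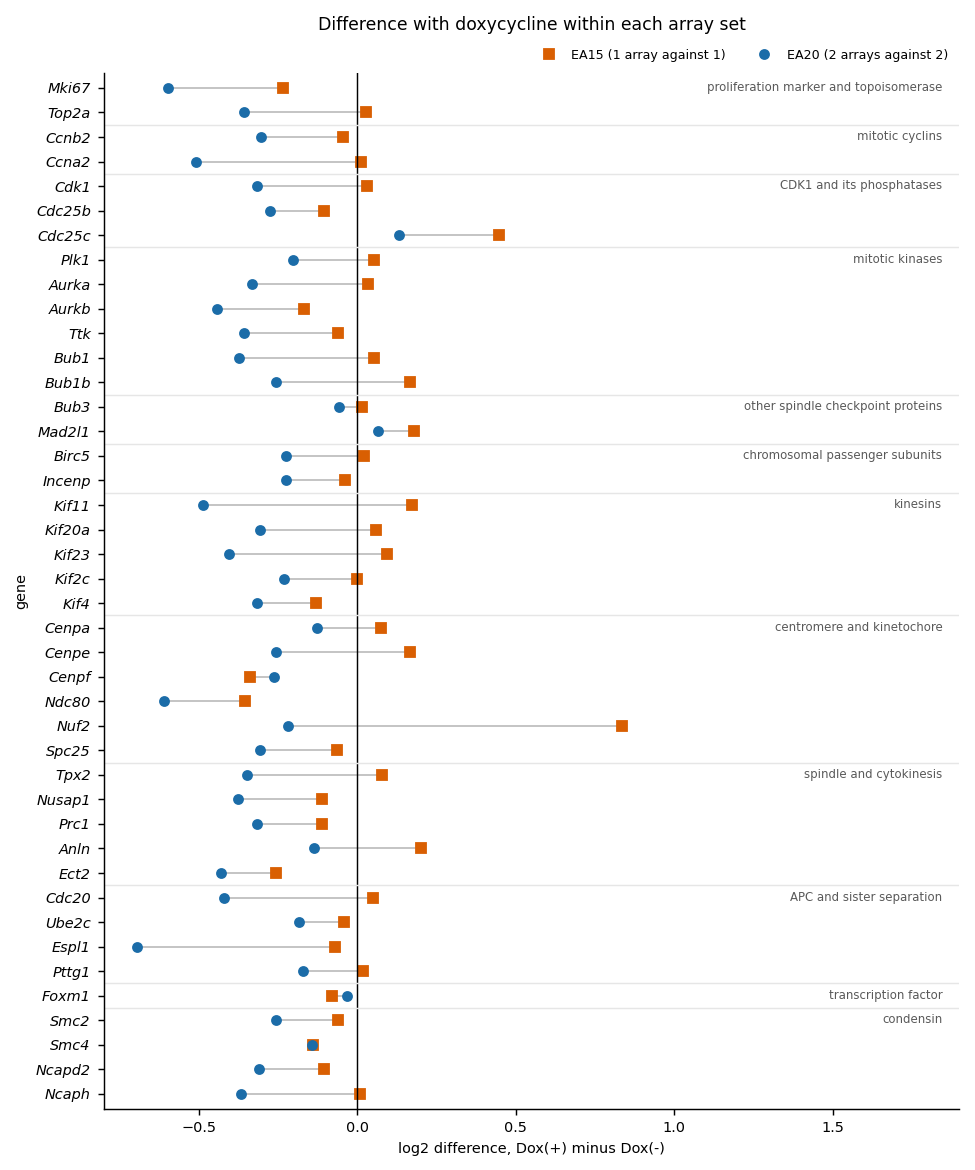
Log2 difference, Dox(+) minus Dox(-) (horizontal axis), of each mitotic gene (rows, grouped by function) in EA15 (orange squares, 1 array against 1) and EA20 (blue circles, means of 2 arrays against 2). In EA20 40 of 42 circles lie left of 0; in EA15 19 of 42 squares do.

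The difference between the sets was itself tested, as the interaction of doxycycline with array set, under the assumption that the lone EA15 arrays vary like the EA20 arrays. The EA20 difference was below the EA15 difference for 40 of 42 genes, by a median of -0.26, against 52.3% and -0.02 over all genes. Single genes did not pass: limma called 0 of the 42 and 0% of all genes, with adjusted p between 0.48 and 0.998 for the 42, and 16 of 42 (38.1%) had an unadjusted p under 0.05, against 6.72% of all genes. The median distance of the 42 genes from their own means gives the same picture array by array. It was 0.51 on the EA15 Dox(+) array and -0.34 and -0.44 on the EA20 Dox(+) arrays, against 0.48 on the EA15 Dox(-) array and -0.08 and -0.14 on the EA20 Dox(-) arrays. Over all genes that median stayed between -0.04 and 0.02.

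In what follows, the EA15 signal is given first and the 2 EA20 signals after it; signals are linear and compare arrays only within a gene. Mki67 encodes Ki-67, a coat protein of mitotic chromosomes and the usual marker of dividing cells. Its signals were 7551, 5264 and 4954 in Dox(+), against 8892, 7902 and 7552 in Dox(-). Every Dox(+) signal was below every Dox(-) signal, as in 3.06% of all genes, but the EA15 Dox(+) array and the lower EA20 Dox(-) array were nearly level. The log2 difference was -0.24 in EA15 and -0.60 (SE 0.07) in EA20, where it passed (limma adjusted p 0.029), and -0.48 with the block (95% interval -0.66 to -0.29, limma adjusted p 0.074). The EA20 call was lost when any 1 of the 4 arrays was left out (limma adjusted p 0.13 to 0.27), and with median centring, a pseudocount of 64, averaged probe sets or no mean-variance trend (0.059, 0.054, 0.065 and 0.42). Top2a, which encodes the topoisomerase that untangles sister DNA before mitosis, had signals of 15890, 8319 and 8181 in Dox(+), against 15581, 10498 and 10639 in Dox(-). On this brightest probe set the EA15 pair was nearly level (0.03). Both EA20 Dox(+) arrays were below both Dox(-) arrays, as in 20.9% of all genes (-0.36, SE 0.07, limma adjusted p 0.098). The next brightest probe set of Top2a, with a mean signal of 506, was at -0.23 in EA15 and -0.72 in EA20. The blocked difference of Top2a was -0.23, and -0.56 without _s_at, _x_at and _a_at probe sets (limma adjusted p 0.36 and 0.19).

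Both cyclin genes were nearly level in EA15 and lower in Dox(+) in EA20. Ccna2, cyclin A2, which drives S phase and mitotic entry, had signals of 6311, 2081 and 2137 in Dox(+), against 6252, 3352 and 2693 in Dox(-). Ccnb2, a B-type cyclin partner of CDK1, had 6271, 3700 and 3555 in Dox(+), against 6463, 4641 and 4322 in Dox(-). Their log2 differences were 0.01 and -0.04 in EA15 and -0.51 (SE 0.10) and -0.30 (SE 0.07) in EA20. Neither passed there (limma adjusted p 0.11 and 0.13). The EA20 groups of both genes did not overlap, with Dox(+) lower, as in 20.9% of all genes. CDK1 itself, the mitotic kinase, showed the same split, with Cdk1 signals of 6251, 2792 and 2433 in Dox(+), against 6111, 3473 and 3043 in Dox(-). It was at 0.03 in EA15 and -0.32 (SE 0.09) in EA20. Cdc25b, a phosphatase that activates CDK1 at the centrosome, had signals of 745, 639 and 575 in Dox(+), against 803, 787 and 688 in Dox(-). It was lower in both sets (-0.11 and -0.27), though the EA15 Dox(+) signal lay within the range of Dox(-). Cdc25c, another CDK1 phosphatase, was on the other side of 0 in both sets (0.45 and 0.13), and its EA20 groups overlapped.

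The 6 mitotic kinases were all negative in EA20, from -0.20 to -0.44. In each, both EA20 Dox(+) signals lay below both Dox(-) signals, as they did in 20.9% of all genes. Aurkb, the Aurora kinase of the chromosomal passenger complex that corrects faulty attachments, had signals of 3413, 1216 and 1171 in Dox(+), against 3838, 1690 and 1566 in Dox(-). It was lower in both sets, at -0.17 in EA15 and -0.44 (SE 0.07) in EA20, with a blocked difference of -0.35 (95% interval -0.52 to -0.18, limma adjusted p 0.12). Ttk, the checkpoint kinase MPS1, had signals of 1629, 749 and 789 in Dox(+), against 1702, 1008 and 970 in Dox(-), which is -0.06 in EA15 and -0.36 in EA20. Plk1, the polo-like kinase of mitotic entry, was at 0.05 in EA15 and -0.20 in EA20, and Aurka, the Aurora kinase of the spindle poles, at 0.03 and -0.33. The checkpoint kinase gene Bub1 and its relative Bub1b (BUBR1) were at 0.05 and 0.17 in EA15 and at -0.37 and -0.26 in EA20.

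The genes of the 2 spindle checkpoint proteins without a kinase domain showed no common direction on their brightest probe sets. Mad2l1, which encodes the checkpoint protein MAD2 that binds CDC20, had signals of 7123, 4710 and 4757 in Dox(+), against 6283, 4770 and 4278 in Dox(-). Bub3, which docks BUB1 and BUBR1 at kinetochores, had 10040, 6409 and 6713 in Dox(+), against 9929, 7567 and 6160 in Dox(-). In both genes the EA20 groups overlapped. Blocked differences were 0.10 (95% interval -0.04 to 0.25) for Mad2l1 and -0.03 (-0.22 to 0.15) for Bub3. The Bub3 value moved to -0.32 with all its probe sets averaged and to -0.22 without _s_at probe sets (limma adjusted p 0.44 and 0.56). Its dimmer probe sets, with mean signals of 589, 143, 65.5 and 32.7, were at -0.22, 0.02, -0.85 and -0.50. Mad2l1 had 1 probe set. The chromosomal passenger complex carries Aurora B to centromeres and then to the midzone. Incenp, the scaffold of the complex, had signals of 8473, 4982 and 5106 in Dox(+), against 8694, 6218 and 5587 in Dox(-). Birc5, survivin, had 6151, 2941 and 2961 in Dox(+), against 6062, 3560 and 3339 in Dox(-). Each was at -0.22 in EA20, and at -0.04 and 0.02 in EA15.

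All 5 kinesin genes were negative in EA20, from -0.23 to -0.49. Their EA20 groups did not overlap, with Dox(+) lower, as in 20.9% of all genes. Kif2c, which encodes the microtubule depolymerase MCAK, had signals of 2851, 1633 and 1603 in Dox(+), against 2849, 1891 and 1909 in Dox(-). On this brightest probe set the EA15 arrays were level (0.00), and the EA20 difference was -0.23 (SE 0.06). The dimmer probe sets of Kif2c, with mean signals of 1105, 788 and 61.7, were at -0.01, -0.18 and 0.26 in EA15. In EA20 they were at -0.24, -0.31 and -0.81. Kif4, a chromokinesin of the spindle midzone, was lower in both sets, with signals of 649, 470 and 394 in Dox(+), against 712, 566 and 514 in Dox(-). Kif11, the Eg5 motor that pushes spindle poles apart, was at 0.17 in EA15 and -0.49 in EA20 on its brightest probe set, and at -0.16 and -0.11 in EA15 on the other 2. The cytokinesis kinesins Kif20a and Kif23 were at 0.06 and 0.09 in EA15 and -0.30 and -0.40 in EA20.

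**Figure D4:**
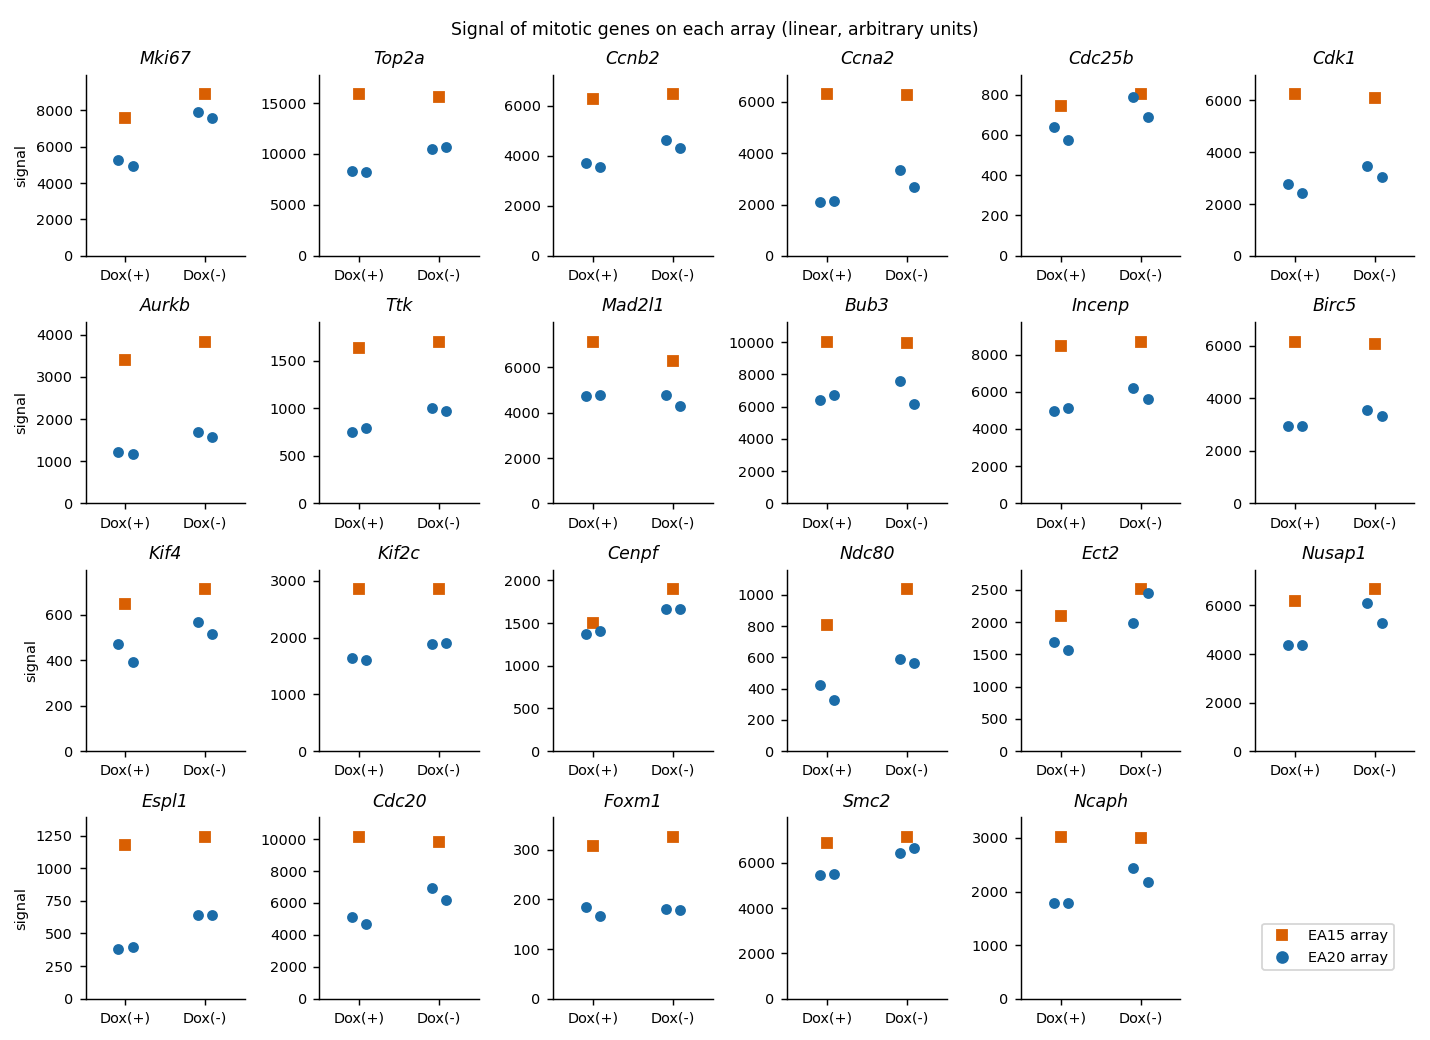
Linear signal (vertical axes, arbitrary units) on each array for 23 mitotic genes, with Dox(+) left and Dox(-) right in each panel; orange squares are EA15 arrays and blue circles EA20 arrays. Each panel shows the brightest probe set of its gene. For Top2a, Cdk1 and Kif2c the 2 squares are level. Both Dox(+) circles lie below both Dox(-) circles there, as in 20.9% of all genes. For Mki67 and Cenpf the circles do the same, and the square is also lower in Dox(+).

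At the kinetochore, Ndc80 was lower in both sets, as was Cenpf on its brightest probe set. Ndc80, the microtubule-binding subunit that gives the NDC80 complex its name, had signals of 807, 421 and 328 in Dox(+), against 1035, 588 and 564 in Dox(-). Its differences were -0.35 in EA15 and -0.61 (SE 0.15) in EA20, and the blocked one, -0.52 (95% interval -0.79 to -0.26, limma adjusted p 0.14), was the most negative of the 42. Cenpf, a large kinetochore protein of late G2, had signals of 1496, 1375 and 1402 in Dox(+), against 1896, 1668 and 1667 in Dox(-). Its 6 values did not overlap between groups, with Dox(+) lower, as in 3.06% of all genes. The differences were -0.34 in EA15 and -0.26 in EA20, with a blocked limma adjusted p of 0.12. The dimmer probe sets of Cenpf, with mean signals of 187 and 122, were at -0.75 and 0.27 in EA15. In EA20 they were at -0.38 and -0.05. With all its probe sets averaged, the blocked difference of Cenpf was -0.24 (limma adjusted p 0.52). Of the other NDC80 complex subunits, Spc25 was at -0.06 in EA15 and -0.31 in EA20. Nuf2, the direct partner of NDC80, had the most positive EA15 difference of the 42 (0.83) with -0.22 in EA20; its interaction was -1.05 (limma adjusted p 0.48). That EA15 value comes from a Dox(+) signal of 1901, while the other 5 arrays were between 793 and 1059. Cenpa, the centromeric histone, and Cenpe, a kinetochore motor, were at 0.07 and 0.17 in EA15 and -0.13 and -0.26 in EA20. These values are of their brightest probe sets. The dimmer probe set of Cenpe, with a mean signal of 565, was at -0.24 in EA15 and -0.34 in EA20.

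Genes of spindle assembly and cytokinesis were all negative in EA20. Ect2, which activates RhoA for the contractile ring, had signals of 2102, 1700 and 1572 in Dox(+), against 2511, 1981 and 2459 in Dox(-). Nusap1, a microtubule-bundling protein, had 6174, 4389 and 4353 in Dox(+), against 6667, 6081 and 5293 in Dox(-). Both were lower in both sets, by -0.25 and -0.11 in EA15 and -0.43 and -0.38 in EA20. In each, though, the EA15 Dox(+) signal exceeded at least 1 EA20 Dox(-) signal. The dimmer probe set of Nusap1, with a mean signal of 155, was at 0.68 in EA15 and -0.51 in EA20. Prc1, which bundles midzone microtubules, was lower in both sets on its brighter probe set (-0.11 and -0.32). Its dimmer probe set was at -0.61 in EA15 and 0.11 in EA20. Tpx2, the activator of Aurora A, was at 0.08 in EA15 and -0.35 in EA20, and Anln, the actin-binding protein anillin, at 0.20 and -0.14.

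Among the genes of the anaphase-promoting complex pathway and of sister separation, Espl1 and Cdc20 had the largest differences. Espl1, separase, had signals of 1182, 382 and 395 in Dox(+), against 1240, 638 and 640 in Dox(-). The EA20 difference of -0.70 (SE 0.11, limma adjusted p 0.058) was the most negative of the 42, and the EA15 difference was -0.07. Cdc20, the mitotic activator of the complex, had 10136, 5103 and 4686 in Dox(+), against 9799, 6923 and 6189 in Dox(-), which is 0.05 in EA15 and -0.42 in EA20. It was the only one of the 42 called with the block when all probe sets of a gene were averaged (-0.56, limma adjusted p 0.040), and its dimmest probe set was at -1.66 in EA15. Pttg1, securin, and Ube2c, the ubiquitin-conjugating enzyme of the complex, were at -0.17 and -0.18 in EA20, and the Ube2c groups overlapped there. Foxm1, the transcription factor that activates many of these genes, gave different values by probe set. On the brightest of 4 its signals were 308, 185 and 167 in Dox(+), against 326, 182 and 179 in Dox(-), with a blocked difference of -0.05 (95% interval -0.41 to 0.31). The other probe sets, with mean signals of 169, 156 and 14.7, were at -0.40, -0.19 and -0.74 with the block. The dimmest of these was at -1.15 in EA20 and 0.06 in EA15. The mean of all 4 probe sets was at -0.35 with the block (limma adjusted p 0.60).

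Condensin compacts chromosomes for segregation. Smc2, a core ATPase of both condensins, had signals of 6852, 5467 and 5503 in Dox(+), against 7142, 6446 and 6660 in Dox(-). Ncaph, the kleisin of condensin I, had 3019, 1788 and 1781 in Dox(+), against 3003, 2439 and 2181 in Dox(-). In EA20 these were differences of -0.26 and -0.37, and in EA15 of -0.06 and 0.01. The EA20 groups of both genes did not overlap, with Dox(+) lower, as in 20.9% of all genes. Ncapd2, another condensin I subunit, was at -0.10 in EA15 and -0.31 in EA20. Smc4, the partner of Smc2, was at -0.14 in both sets on its brightest probe set. Its next brightest was at 0.12 in EA15 and -0.26 in EA20, and its dimmest at -0.10 and -0.13.

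**Figure D5:**
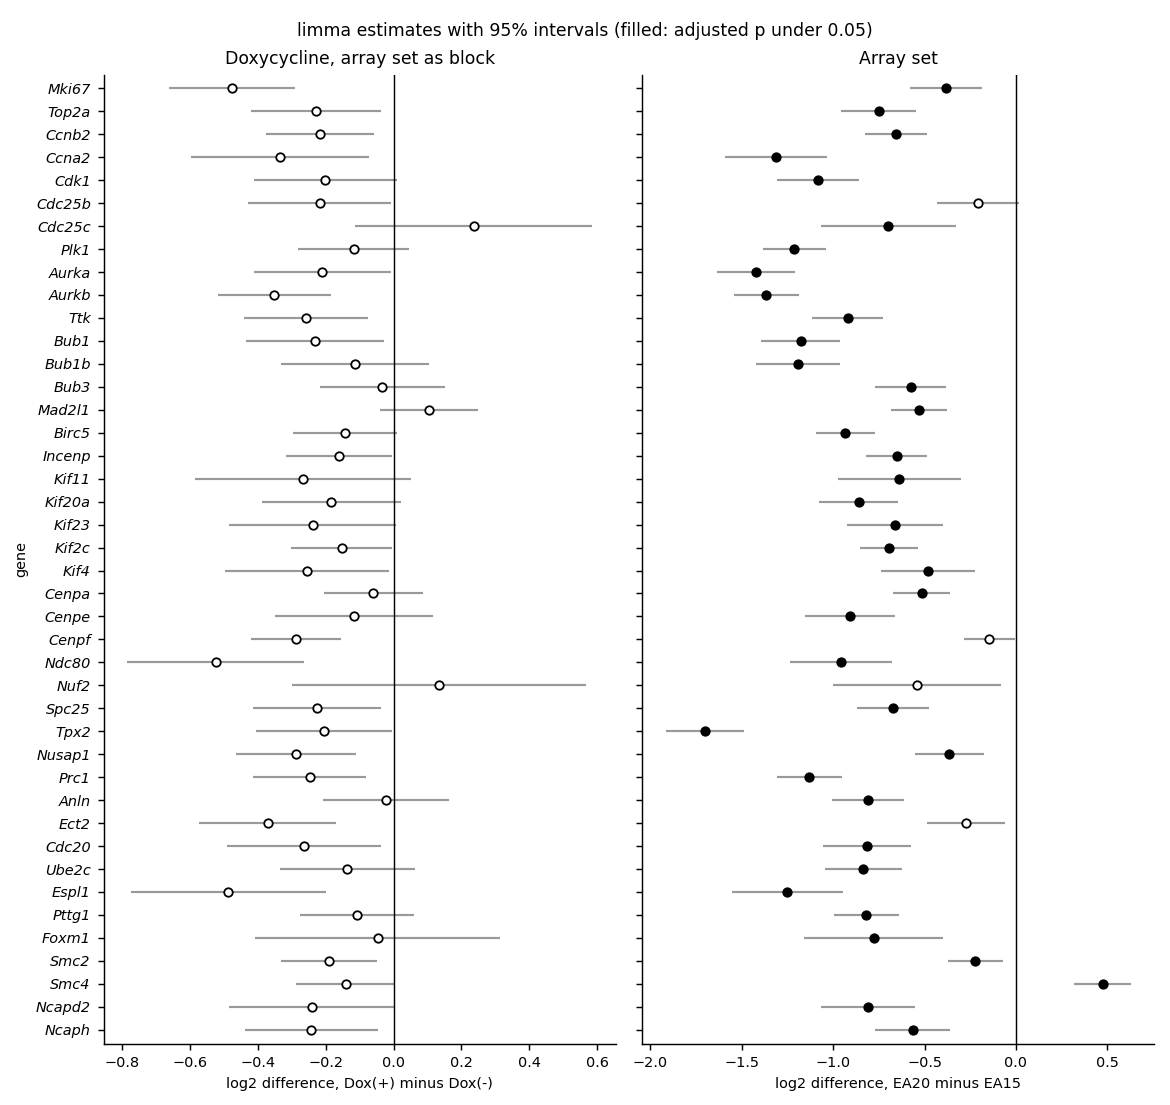
limma estimates (points) with 95% intervals (lines) for each mitotic gene (rows): left, the log2 difference Dox(+) minus Dox(-) with array set as a block; right, the log2 difference EA20 minus EA15 in the same fit. Filled points have an adjusted p under 0.05, which 0 of 42 reach on the left and 38 of 42 on the right.

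Between the array sets the mitotic genes differed by more than between the treatments. EA20 was lower than EA15 for 41 of 42 mitotic genes, with a median log2 difference of -0.77, against 0.04 over all genes. limma called 37 of the 42 lower in EA20, where 16.3% of all genes were called lower, and 1 higher (Smc4, 1.39-fold), where 17.3% were called higher. Tpx2 in EA20 was at 0.307 of its EA15 level, Aurka at 0.374, Aurkb at 0.388 and Ccna2 at 0.402. The genes not called were Cdc25b, Cenpf, Nuf2 and Ect2. With each array centred on its median, the set difference over all genes moved to -0.14 and that of the mitotic genes to -0.94, with 41 of 42 lower as before. What the sets were, and whether culture, RNA or array handling differed between them, is not given in the sources used here, so their part in the EA20 result was not tested.

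Other mitotic genes, from lists chosen by function, were also mostly negative in EA20, and a larger share of them than of the 42 was negative in EA15. Of 70 further genes of the spindle, kinetochore, condensin and mitotic kinases, 63 were negative in EA20 (median -0.26), against 50.3% of all genes. In EA15, 48 were negative (68.6%, median -0.09), against 45.2% of the 42 and 47.5% of all genes. With the block limma called 0 of the 70, where 0.198% of all genes were called. In EA20 it called 0 of the 70, where 0.11% of all genes were called lower. Zwilch, a kinetochore protein of the RZZ complex, was the nearest: its signals were 1750, 663 and 613 in Dox(+), against 2151, 950 and 961 in Dox(-), with a blocked difference of -0.48 (SE 0.08, limma adjusted p 0.073). Ncapg2, a condensin II subunit, Aspm, a spindle pole protein, and Cenpw, a centromere protein, followed at -0.31, -0.33 and -0.34. All 4 were also negative in EA15, from -0.24 to -0.30.

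The subunits of the anaphase-promoting complex and of MuvB and DREAM had differences of both signs in EA20, where 50.3% of all genes were negative. Of 15 genes of the complex, 8 were negative in EA20 (median -0.08), with blocked differences of -0.25 for Anapc13, 0.22 for Anapc2, -0.19 for Cdc27 and 0.20 for Anapc16. Of 12 genes of the MuvB, B-Myb and DREAM complexes, 8 were negative in EA20 (median -0.10). Tfdp2 and Tfdp1, partners of E2F factors, were at -0.22 and -0.14 with the block, the p107 gene Rbl1 at -0.16, and Mybl2, which encodes B-Myb, at -0.27. Of 13 genes of cohesin and its regulators, which hold sisters together, 12 were negative in EA20 (median -0.11). There limma called 1 of the 13, as lower, where 0.11% of all genes were called lower. This was Esco2, the acetyltransferase that sets cohesion in S phase, with signals of 2067, 876 and 858 in Dox(+), against 1866, 1316 and 1412 in Dox(-), at 0.15 in EA15 and -0.64 in EA20 (limma adjusted p 0.030). The cohesin genes Smc1a, Stag1 and Pds5a were at -0.13, -0.14 and -0.11 with the block.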

How the data were processed

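RNA from 6 samples was hybridised to Affymetrix mouse arrays, and the deposited values are linear signal intensity per probe set, made by the authors with Expression Console software from Affymetrix, according to the submitters' processing notes. Neither its version nor its algorithm is given in the sources used here. The values show that every array had been scaled to the same trimmed mean, which hides a change in the total amount of mRNA. No detection calls were used here, and the number of arrays limits the precision. Of 45101 probe sets, 64 were controls and 34945 carried 1 gene symbol in the platform annotation (932 several, 9160 unlisted), which gave 18193 genes; 0 symbols changed through Entrez identifiers.

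Signals were analysed as log2(signal + 16), which understates changes of dim genes, with no filter. limma 3.58.1 in R 4.3.3 (lmFit, eBayes with trend, two-sided, Benjamini-Hochberg over all 18193 genes, adjusted p under 0.05) was fitted with doxycycline and array set, in EA20 alone, with their interaction, and without the block. The single EA15 arrays of a group gave ratios with no test. Groups came from the source names; replicate numbers follow sample order and pair nothing. The fits were run on simulated data in which the noise was independent between genes. This does not cover genes that vary together or the code order in EA20. The genes, lists, tests and the rule for genes given on every array (the 2 of each function with the smallest blocked p, and any called) were chosen with earlier results of these data known; for the context lists the 4 with the smallest p were named. Promoter windows are RefSeq's, GRCm38.p6; 8 of the 42 genes had none in the table used. Alternatives covered the pseudocount (1 and 64), the prior (robust, or without trend), scaling (quantile, median centring), array weights, a signal filter at the 40th percentile, other choices of probe set (averaged, or no _s_at, _x_at and _a_at), a looser threshold of 0.10, and each array left out in turn.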

Additional observations from a re-analysis of the deposited data

How the results depend on the processing

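The direction of the mitotic genes as a group held in every setting tried, all of which include EA20 arrays. With the block or without it, 37 to 40 of 42 were negative (33 of 34 without _s_at, _x_at and _a_at probe sets). The median log2 difference ran from -0.15 to -0.31. In the EA15 pair alone, 19 of 42 were negative, with a median of 0.01. Single signs turned for Nuf2, Bub1b, Kif23, Bub3 and Anln in some settings. The interaction median stayed between -0.32 and -0.20, with 0 calls in each setting. The block compares the 2 EA15 arrays with each other. No pairing of the EA20 arrays was possible because replicate numbers follow sample order and pair no arrays. Counts of calls did not hold. With the block, 36 genes in all and 0 of the 42 were called; the counts were 95 and 1 at an adjusted p under 0.10, 75 and 1 in EA20 alone, 130 and 1 above the 40th percentile of signal, 13 and 1 with probe sets averaged, 61 and 1 with a pseudocount of 1, 22 and 0 with a pseudocount of 64, and 0 and 0 without the block or without the trend. Leaving out 1 array gave 0 to 60 genes in all and 0 to 1 of the 42; without an EA15 array the other is absorbed by the block, so Mki67 was called as in EA20 (limma adjusted p 0.031 and 0.034). In EA20 alone, 75 genes and 1 of the 42 were called; the counts were 222 and 5 at an adjusted p under 0.10, 397 and 12 above the 40th percentile, 12 and 0 with probe sets averaged, 49 and 0 with median centring, 155 and 3 with a pseudocount of 1, 23 and 0 with a pseudocount of 64, and 0 and 0 without the trend. Above the 40th percentile fewer genes were tested, and the limma prior was fitted to those genes alone. What caused the changes in these counts was not tested. Leaving out 1 EA20 array gave 0 to 6 genes and 0 of the 42 there, with the lone array assumed to vary like the others. The median set difference of the mitotic genes was -0.94 with median centring and -0.91 to -0.58 with 1 array left out. The EA20 and array set alternatives were chosen after seeing the data.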

Other observations

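Of the 42 mitotic genes, 28 had more than 1 probe set, 52 further ones in all, and 45 of these 52 were negative in EA20. The sign in EA20 matched that of the brightest probe set for 44 and opposed it for 8. Among genes with several bright probe sets, the 3 for Kif11 were at -0.49, -0.48 and -0.46 in EA20, while in EA15 they were at 0.17, -0.16 and -0.11, so the positive EA15 value given above for Kif11 holds for its brightest probe set only. The 2 for Ncaph were at -0.37 and -0.35, and the 2 for Aurkb at -0.44 and -0.63. Prc1 was an exception, with -0.32 for the brighter and 0.11 for the dimmer. The 3 for Cdc20 were at -0.42, -0.42 and -0.89 in EA20 and at 0.05, 0.05 and -1.66 in EA15. The last of these is the dimmest; it and the brightest share a suffix that marks probes able to match several transcripts. Averaging all probe sets moved the blocked difference to -0.26 for Kif2c, -0.38 for Smc2 and -0.43 for Ttk, against -0.15, -0.19 and -0.26 for their brightest. These averages include dim probe sets. The dimmest of each gene, with mean signals of 61.7, 48.0 and 108, were at -0.45, -0.95 and -0.59. A dimmer probe set of Cdc25c was at -0.11 in EA20, against 0.13 for the brightest.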
